A study of Mus musculus with 8 samples.

Results

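The genes described here are 9 targets of the PPARs, nuclear receptors that switch muscle towards fatty acids as fuel: Pdk4, Ucp3, Acot2, Acot1, Cpt1b, Slc25a20, Hadha, Angptl4 and Plin2. They were taken by symbol from a table of 48328 genes, and Pdk4, Ucp3 and Acot2 were chosen by their FPKM, which were higher in K320E-skm muscle. Their genotype difference, and that of the other 6, is therefore given as a description, with no p for any member. The samples were total RNA from the lower part of the tibialis anterior, which lifts the foot and is built of fast fibres, in 24-month-old C57BL/6J mice. In skeletal muscle, K320E-skm mice make a dominant mutant Twinkle, a helicase that unwinds mitochondrial DNA when it is copied. The sources used here do not give the promoter that directs it there or the origin of the wild-type animals. There were 4 K320E-skm libraries, with 1 and 4 labelled male and 2 and 3 labelled female, and 4 wild-type libraries, with 1 and 3 labelled male and 2 and 4 labelled female. The labels name no agent and no pooling of animals, and do not say how the animals were related, so p-values speak only of the spread among these samples, which may be technical.

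PPAR-alpha, PPAR-delta and PPAR-gamma bind fatty acids and, as partners of the retinoid X receptors, activate genes whose promoters or enhancers hold paired copies of the half-site AGGTCA. In muscle that takes up fatty acids, during fasting or endurance exercise, they raise a programme with several arms. Carnitine palmitoyltransferase 1 (Cpt1b) and the carnitine-acylcarnitine carrier (Slc25a20) bring acyl groups into mitochondria, and the trifunctional protein (its alpha subunit is Hadha) oxidises them. Pdk4 phosphorylates and so shuts pyruvate dehydrogenase, which spares glucose; Ucp3 is an uncoupling protein family member of the inner mitochondrial membrane; and the thioesterases Acot1 (cytosolic) and Acot2 (mitochondrial) release fatty acids from coenzyme A. Plin2 coats lipid droplets, and Angptl4 is a secreted inhibitor of lipoprotein lipase.

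The upstream sequences of the genes with the clearest differences are shown so that the presence or absence of PPAR half-sites can be read in them, with that of Plin2, a lipid droplet gene with little difference, for contrast. They are the bases just before the GENCODE start of the gene, 5′ to 3′ on the gene's strand, from the RefSeq promoter table (GRCm38.p6), which held 7 of the 9 genes; Cpt1b and Angptl4 were not among them. Capitals mark AGGTCA or its reverse complement TGACCT.
Ucp3, chr7:100472741-100472989, plus strand: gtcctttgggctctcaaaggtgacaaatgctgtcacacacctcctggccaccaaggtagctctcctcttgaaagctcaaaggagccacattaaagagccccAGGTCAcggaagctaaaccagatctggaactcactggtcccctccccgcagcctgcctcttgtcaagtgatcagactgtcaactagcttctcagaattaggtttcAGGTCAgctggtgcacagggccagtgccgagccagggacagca
Pdk4, chr6:5496310-5496528, minus strand: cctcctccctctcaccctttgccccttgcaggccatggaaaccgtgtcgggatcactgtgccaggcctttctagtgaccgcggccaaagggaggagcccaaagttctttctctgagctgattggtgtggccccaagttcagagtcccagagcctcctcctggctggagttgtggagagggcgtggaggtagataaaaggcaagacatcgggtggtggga
Acot2, chr12:83987611-83987860, plus strand: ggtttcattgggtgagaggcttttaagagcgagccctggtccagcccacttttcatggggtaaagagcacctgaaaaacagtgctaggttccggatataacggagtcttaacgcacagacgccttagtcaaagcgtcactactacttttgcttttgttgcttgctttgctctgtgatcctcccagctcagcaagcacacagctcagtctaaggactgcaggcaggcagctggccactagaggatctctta
Plin2, chr4:86670061-86670309, minus strand: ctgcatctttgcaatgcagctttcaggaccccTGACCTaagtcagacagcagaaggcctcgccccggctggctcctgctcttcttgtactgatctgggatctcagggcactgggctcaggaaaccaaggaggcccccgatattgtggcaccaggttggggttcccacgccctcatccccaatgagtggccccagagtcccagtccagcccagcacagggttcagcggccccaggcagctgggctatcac
The search covered the 250 bases before the RefSeq start. Its last 182 bases for Hadha, 48 for Slc25a20, 31 for Pdk4, 12 for Acot1 and 1 each for Ucp3 and Plin2 lie inside the GENCODE gene and are left out of the printed sequences. Counted from the RefSeq start to the first base of the motif, Ucp3 held 2 copies of AGGTCA on its own strand, 149 and 44 bases before the start. Plin2 held 1 copy on the opposite strand, 218 bases before the start. No copy lay in this window of Pdk4, Acot2, Acot1, Slc25a20 or Hadha. Of 27025 promoter windows of that length, 13.8% held at least 1 copy on either strand and 1.32% held 2 or more. The full PPAR element, 2 copies of AGGTCA in tandem with any 1 base between them, was in 0.037% of windows, and the forkhead motif GTAAACA in 3.09%; neither was in any of the 7 windows searched. A match is a description of letters, and a missing match says only that these letters are not in this window.

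The libraries held 10167 to 11581 genes at 1 FPKM (fragments counted on a gene, relative to the length of its transcript and to all mapped fragments of the library) or more, with relative depths between 1.00 and 1.31 read from the smallest values. Without counts in the table, only relative depth is known. Twnk, the gene of Twinkle, was at 3.82 to 5.06 FPKM in the K320E-skm and 2.16 to 2.70 FPKM in the wild-type libraries. Markers of skeletal muscle summed to 17102 to 20731 FPKM in K320E-skm and 21898 to 24241 FPKM in wild-type libraries, and 3 of 4 cardiomyocyte markers (Myh6, Nppa, Nppb) stayed below 1 FPKM in all 8. The median tested gene was 0.14 lower on the log2 scale in K320E-skm muscle, and this shift became 0.00 after rescaling each library by the median ratio to the others. Changes are therefore also given after that rescaling. Library K320E-skm 4, labelled male, had Xist at 10.2 FPKM and the Y-linked Ddx3y at 0.0117 FPKM, which goes against its label. In the other 7 libraries these transcripts went with the labels, with Xist at 8.82 to 15.0 FPKM under the female label and Ddx3y at 14.3 to 21.6 FPKM under the male label.

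Pdk4, Ucp3 and Acot2 were on average 1.82 to 2.08 times as high in K320E-skm as in wild-type muscle. The genes of fatty acid entry and oxidation stayed close to level, with ratios of means of 1.00 for Cpt1b, 0.895 for Slc25a20 and 1.03 for Hadha. The ratio was 1.04 for Plin2 and 1.40 for Angptl4, both with overlap between the groups. Among 10521 genes tested by limma on log2(FPKM + 1), 0.019% were called in this contrast at an adjusted p under 0.05. None of the 8 tested members was called. Of these 8 members, 6 lay above 0 and 2 below, with a median log2 difference of 0.24 (0.40 after rescaling), and over all tested genes 2152 lay above 0 and 8369 below, with a median of −0.14 (0.00 after rescaling). These values come from the contrast on which members were chosen and nothing is read from them. Tissue RNA does not separate fewer cells of a type from less RNA per cell.

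**Figure D1:**
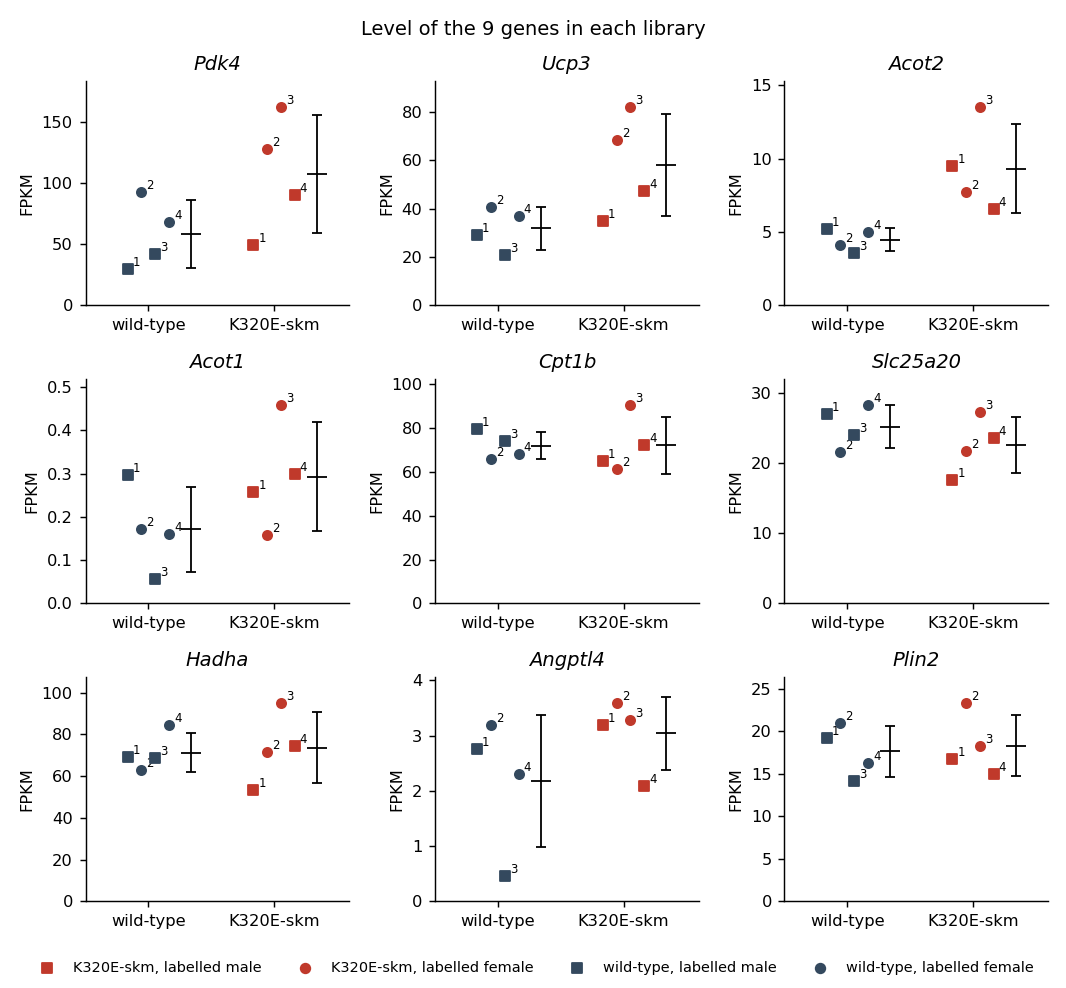
FPKM of each of the 9 genes in the 4 K320E-skm and 4 wild-type libraries (1 panel per gene, vertical axis in FPKM from 0; points are libraries with their numbers, shaped by sex label; the black bars are the mean and SD of each group). Acot2 is the gene whose K320E-skm points all lie above the wild-type points; those of Pdk4 and Ucp3 overlap, and Cpt1b, Hadha and Plin2 have like means in both groups.

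Pdk4 (ENSMUSG00000019577, chr6:5483351-5496309, minus strand, GRCm38) was the member with the widest range in FPKM, although the ratio of the highest to the lowest library was larger for Acot1 and Angptl4. K320E-skm libraries 1 to 4 measured 49.4, 128, 162 and 90.2 FPKM, and wild-type libraries 1 to 4 measured 30.1, 92.4, 42.2 and 68.1 FPKM. K320E-skm 2 and 3 lay above every wild-type library, and K320E-skm 1 and 4 lay within the wild-type range. Mean Pdk4 was 107 ± 48.6 FPKM with the mutant and 58.2 ± 27.7 FPKM in wild-type muscle (SD over 4 libraries, as for every ± below), a ratio of 1.85. The log2 difference was 0.87 (SE 0.41, limma), and 1.05 after rescaling. Its upstream window printed above held neither the half-site nor the forkhead motif.

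The other kinases of pyruvate dehydrogenase give Pdk4 its context. Pdk2, the other abundant kinase in this muscle, spanned 39.8 to 48.6 FPKM in the K320E-skm and 49.7 to 60.8 FPKM in wild-type libraries. These ranges did not overlap; of all tested genes, 9.59% were lower in all 4 K320E-skm libraries than in every wild-type library. The means of Pdk2 were 44.5 ± 3.99 and 55.4 ± 4.65 FPKM, a log2 difference of −0.31 that was −0.13 after rescaling. Pdk1 averaged 7.59 ± 1.52 and 9.78 ± 1.36 FPKM, and Pdk3 was below 1 FPKM in every library. Pdk4 made up 51.7%, 71.6%, 74.3% and 61.3% of the summed FPKM of the 4 kinases in K320E-skm 1 to 4, and 30.4%, 58.9%, 37.8% and 53.4% in wild-type 1 to 4. Pdk4 was thus the largest of the 4 in every K320E-skm library, and in wild-type 2 and 4 but not in wild-type 1 and 3. The mean share was 64.7% ± 10.3 against 45.1% ± 13.3, and the ranges overlapped. Because it is a share within a library, it does not depend on the scaling between libraries. Since Pdk4 was chosen for its difference, the share carries no test.

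**Figure D2:**
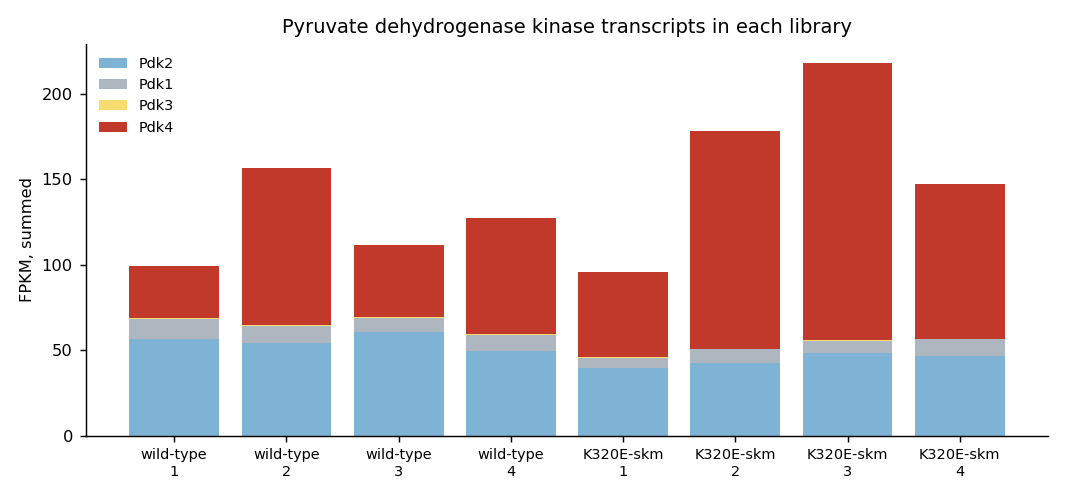
FPKM of the 4 pyruvate dehydrogenase kinases stacked in 1 bar per library (vertical axis, summed FPKM from 0; 4 wild-type libraries left, 4 K320E-skm right). The Pdk4 part of the bar is 51.7% to 74.3% in K320E-skm and 30.4% to 58.9% in wild-type libraries.

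Ucp3 (ENSMUSG00000032942, chr7:100472990-100486432, plus strand), whose upstream window held the 2 half-sites, showed a like pattern. It stood at 35.0, 68.1, 82.0 and 47.1 FPKM in K320E-skm libraries 1 to 4 and at 29.3, 40.7, 20.8 and 36.9 FPKM in wild-type libraries 1 to 4. K320E-skm 2, 3 and 4 lay above every wild-type library and K320E-skm 1 did not. Mean Ucp3 was 58.0 ± 21.0 against 31.9 ± 8.82 FPKM, a ratio of 1.82. The log2 difference was 0.81 (SE 0.28), and 0.99 after rescaling. An antisense gene, Gm10603, shares 1857 bases with Ucp3 and was at 0.363 to 1.32 FPKM; the sources used here do not say whether fragments were assigned by strand. The related carrier Ucp2 averaged 5.08 ± 1.55 and 3.81 ± 0.977 FPKM.

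Acot2 (ENSMUSG00000021226, chr12:83987861-83993873, plus strand) had the largest ratio of means among the 9 genes. The K320E-skm libraries 1 to 4 gave 9.46, 7.72, 13.5 and 6.58 FPKM, and the wild-type libraries 1 to 4 gave 5.21, 4.09, 3.58 and 5.03 FPKM. The lowest K320E-skm value exceeded the highest wild-type value, the only member of which this was true; of all tested genes, 0.333% lay higher in this way. That is 35 genes higher and 1009 lower without overlap, and after rescaling 306 higher and 314 lower. Mean Acot2 was 9.32 ± 3.04 against 4.48 ± 0.773 FPKM, a ratio of 2.08. The log2 difference was 0.88 (SE 0.20), and 1.04 after rescaling.

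Acot1 (ENSMUSG00000072949, chr12:84009490-84018371) is a near copy of Acot2 in the same gene cluster, and reads of one can be assigned to the other. The coding sequences are shown in part to make this plain: the second coding exons differ at 4 of 203 bases, given in capitals, from GENCODE M21 transcripts (GRCm38, plus strand).
Acot1, chr12:84014379-84014581: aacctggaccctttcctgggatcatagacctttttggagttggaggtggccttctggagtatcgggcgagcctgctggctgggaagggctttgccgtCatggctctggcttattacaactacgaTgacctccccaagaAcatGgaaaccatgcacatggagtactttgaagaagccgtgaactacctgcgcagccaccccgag
Acot2, chr12:83990494-83990696: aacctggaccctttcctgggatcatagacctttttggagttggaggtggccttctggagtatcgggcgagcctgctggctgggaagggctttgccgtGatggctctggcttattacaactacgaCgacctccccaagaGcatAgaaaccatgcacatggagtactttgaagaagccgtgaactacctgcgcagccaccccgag
By contrast, the first 123 coding bases of Acot2 have no counterpart in Acot1.
Acot2, chr12:83987902-83988024: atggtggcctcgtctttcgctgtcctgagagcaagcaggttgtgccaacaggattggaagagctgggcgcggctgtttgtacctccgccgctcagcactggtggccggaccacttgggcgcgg
Over 1236 aligned coding bases the identity was 95.3%. Of the stretches of 50 bases in the Acot2 transcript, 27.7% also occur in a transcript of another gene. For the Acot1 transcript this share was 33.2%. Acot1 was the least expressed of the 9, at 0.257, 0.159, 0.459 and 0.299 FPKM in K320E-skm libraries 1 to 4 and 0.297, 0.171, 0.0572 and 0.160 FPKM in the wild-type libraries. It stayed below 1 FPKM everywhere and was not tested. The means were 0.293 ± 0.125 and 0.171 ± 0.0982 FPKM, with overlap. Acot1 made up on average 3.07% of the sum of both genes in K320E-skm libraries and 3.52% in the wild-type. The sum was 9.61 ± 3.14 and 4.65 ± 0.855 FPKM, and its ranges did not overlap.

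Cpt1b, Slc25a20 and Hadha carry the path from cytosolic acyl-CoA to oxidation, and none of them was far from level. Cpt1b (ENSMUSG00000078937, chr15:89416405-89425863) was at 64.7, 61.2, 90.5 and 72.0 FPKM in K320E-skm libraries 1 to 4, against 79.6, 66.0, 74.0 and 67.9 FPKM in wild-type libraries 1 to 4. The means were 72.1 ± 13.1 and 71.9 ± 6.19 FPKM, a log2 difference of −0.01 with a 95% interval of −0.34 to 0.32 (limma) and 0.17 after rescaling. The wild-type range lay inside the K320E-skm range. The readthrough gene Gm44502 shares 93.0% of the 50-base stretches of Cpt1b and was not analysed here.

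Slc25a20 (ENSMUSG00000032602, chr9:108662088-108684641) was at 17.6, 21.8, 27.3 and 23.6 FPKM in K320E-skm libraries 1 to 4, against 27.0, 21.5, 24.0 and 28.3 FPKM in wild-type libraries 1 to 4. Its mean was 22.6 ± 4.00 against 25.2 ± 3.04 FPKM, with overlap, and the log2 difference was −0.16 (95% interval −0.50 to 0.18), which became 0.01 after rescaling. Hadha (ENSMUSG00000025745, chr5:30118304-30155162) was at 53.6, 71.4, 95.2 and 74.3 FPKM in K320E-skm libraries 1 to 4, against 69.2, 62.9, 68.5 and 84.6 FPKM in wild-type libraries 1 to 4. The lowest and the highest of the 8 Hadha values were both K320E-skm libraries. Its means were 73.6 ± 17.1 and 71.3 ± 9.32 FPKM, a log2 difference of 0.03 (95% interval −0.37 to 0.43) and 0.20 after rescaling. Hadhb, the beta subunit of the same complex, averaged 92.9 ± 14.7 and 96.2 ± 22.2 FPKM, and the ratio of Hadha to Hadhb averaged 0.787 and 0.763. In these 3 genes the intervals include 0 and run as far as −0.50 for Slc25a20 and 0.43 for Hadha, or 0.57 for Hadha and 0.46 for Cpt1b relative to the median gene. Set against Cpt1b within each library, Pdk4 averaged 1.47 ± 0.587 times its FPKM in K320E-skm and 0.838 ± 0.457 times in wild-type muscle, and Ucp3 0.804 ± 0.257 and 0.452 ± 0.155 times.

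Plin2 (ENSMUSG00000028494, chr4:86648386-86670060), the droplet coat protein, was at 16.8, 23.3, 18.2 and 14.9 FPKM in K320E-skm libraries 1 to 4, against 19.1, 20.9, 14.2 and 16.3 FPKM in wild-type libraries 1 to 4. The groups overlapped almost wholly, and the log2 difference was 0.05 (95% interval −0.32 to 0.41) and 0.22 after rescaling. Angptl4 (ENSMUSG00000002289, chr17:33773750-33781830) was at 3.20, 3.60, 3.29 and 2.09 FPKM in K320E-skm libraries 1 to 4, against 2.76, 3.20, 0.459 and 2.31 FPKM in wild-type libraries 1 to 4. Wild-type 3 stood below all others, and the remaining 7 libraries lay between 2.09 and 3.60 FPKM. The log2 difference of Angptl4 was 0.44 (95% interval −0.23 to 1.10), 0.57 after rescaling and 0.10 without wild-type 3. Angptl4 is also an adipocyte gene. The 7 adipocyte markers other than Fabp4, which endothelial cells also make, summed to 39.6, 33.6, 28.6 and 40.6 FPKM in K320E-skm libraries 1 to 4 and to 73.7, 125, 10.9 and 37.4 FPKM in wild-type libraries 1 to 4, so the library with the least Angptl4 also had the least of these markers. Other libraries did not keep that order. K320E-skm 2 had the most Angptl4, with a marker sum of 33.6 FPKM, against 125 FPKM in wild-type 2. K320E-skm 4 had Angptl4 at 2.09 FPKM with a sum of 40.6 FPKM. The part of these markers in the Angptl4 values was not tested.

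Levels within wild-type muscle ran from Cpt1b and Hadha at the top to Acot1 at the bottom. The mean FPKM, which are per length of transcript, were 71.9 for Cpt1b, 71.3 for Hadha, 58.2 for Pdk4, 31.9 for Ucp3, 25.2 for Slc25a20, 17.6 for Plin2, 4.48 for Acot2, 2.18 for Angptl4 and 0.171 for Acot1. The ranges of Cpt1b and Hadha, Hadha and Pdk4, Pdk4 and Ucp3, and Ucp3 and Slc25a20 overlapped. Overlap of ranges does not compare 2 genes within a library. Pdk4 was above Ucp3 in every wild-type library, and the other pairs of neighbours changed order between libraries. Each step from Slc25a20 down to Acot1 was free of overlap. In K320E-skm muscle Pdk4 was at the top, followed by Hadha and then Cpt1b, and the order below them was the same.

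The lists of related genes serve as context, and no gene of any of them was called. The list of PPAR receptors, partners and cofactors had 18 of 18 genes tested, 7 above and 11 below 0, with a median of −0.11 (0.05 after rescaling). Ppara, the receptor of oxidative tissues, averaged 3.99 ± 1.62 and 2.51 ± 0.561 FPKM, with overlap. Ppard, the receptor most active in muscle, averaged 2.89 ± 0.501 and 2.25 ± 0.261 FPKM, and Pparg, the adipocyte receptor, 3.24 ± 1.02 and 3.37 ± 2.08 FPKM. The coactivator Ppargc1a averaged 19.0 ± 14.5 and 8.53 ± 1.74 FPKM, with 40.7 FPKM in K320E-skm 2 and 9.58 to 13.7 FPKM in the other K320E-skm libraries, against 7.01 to 10.6 FPKM in wild-type muscle. The most abundant genes of the list were Lpin1, at 33.9 ± 4.90 and 30.1 ± 4.52 FPKM, the corepressor Ncor1, at 24.7 ± 5.67 and 32.2 ± 9.96 FPKM, and Rxra, the partner of the PPARs, at 15.3 ± 1.44 and 18.0 ± 2.25 FPKM. The coactivator Ncoa1 was lower in all 4 K320E-skm libraries, at 2.40 ± 0.152 and 3.09 ± 0.432 FPKM (log2 difference −0.26, −0.13 after rescaling). Of all tested genes, 9.59% were lower in this way. Ppara, Ppard, Pparg, Ppargc1a and Ncoa1 were named after their values were seen.

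Of 36 other PPAR targets of fatty acid use, the 32 that were tested had log2 differences between −0.44 and 0.14 and a median of −0.06 (0.11 after rescaling). The ranges of all 32 overlapped, where 0.333% of all tested genes lay higher and 9.59% lower without overlap. Of the 4 below the filter, Fgf21, a hormone that PPAR-alpha induces in liver, was at 3.11, 0.976, 4.00 and 0.397 FPKM in K320E-skm libraries 1 to 4 and at 0.0311, 0.248, 0.229 and 0.057 FPKM in the wild-type libraries. The K320E-skm values of Fgf21 all lay above the wild-type values, and its log2 difference of 1.27, which carries no test, was larger than that of any member. Cyp4a10, a fatty acid hydroxylase, was also higher without overlap, but at no more than 0.281 FPKM and listed at 0 in 3 wild-type libraries. Fabp3, the fatty acid binding protein of muscle, averaged 214 ± 85.2 and 214 ± 38.4 FPKM. Acadm, the medium-chain acyl-CoA dehydrogenase, averaged 113 ± 24.9 and 129 ± 15.2 FPKM, and Txnip, an inhibitor of thioredoxin, 160 ± 22.0 and 211 ± 75.7 FPKM. Whether the members differ from this list was not tested, and Fgf21 and Cyp4a10 were named after their values were seen.

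Of 12 tested genes of pyruvate dehydrogenase and its regulators (13 listed), 5 lay above and 7 below 0, with a median of −0.13 (0.05 after rescaling). Its most abundant genes were the pyruvate carriers Mpc1, at 143 ± 13.1 and 162 ± 25.5 FPKM, and Mpc2, at 98.9 ± 12.1 and 113 ± 33.2 FPKM, and the enzyme subunit Pdha1, at 128 ± 18.4 and 118 ± 8.28 FPKM. Of 7 tested thioesterases other than the members (13 listed), 2 lay above and 5 below 0, with a median of −0.08 (0.04 after rescaling). Acot13 was lower in all K320E-skm libraries, like 9.59% of all tested genes, at 49.1 ± 3.74 against 55.5 ± 2.68 FPKM. Its log2 difference was −0.17, and 0.00 after rescaling. Acot9 averaged 9.18 ± 1.43 and 7.61 ± 0.757 FPKM, and Acot7 4.13 ± 0.460 and 4.72 ± 0.567 FPKM. The carriers Slc25a4 and Slc25a5, which exchange ADP and ATP across the inner membrane, averaged 954 ± 94.2 and 959 ± 160 FPKM, and 24.1 ± 4.59 and 15.8 ± 2.63 FPKM; with Ucp2, all 3 tested of 4 lay at or above 0, and all overlapped between the groups.

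Lipid droplet and lipolysis genes, 13 of 15 tested, had 5 above and 8 below 0 and a median of −0.19 (−0.03 after rescaling). Plin4, a droplet coat protein, averaged 47.8 ± 11.2 and 36.0 ± 2.93 FPKM, and the lipase Pnpla2 40.0 ± 6.70 and 37.6 ± 7.22 FPKM. G0s2, which inhibits that lipase, was lower in all 4 K320E-skm libraries, like 9.59% of all tested genes. It averaged 16.3 ± 6.22 and 27.9 ± 5.68 FPKM, a log2 difference of −0.82 (−0.64 after rescaling). FoxO factors, Klf15 and glucocorticoids also raise Pdk4 in muscle. Their list holds the regulators Foxo1, Foxo3, Foxo4, Klf15 and Nr3c1, the glucocorticoid receptor, together with genes that such regulators induce. It had 10 of 14 tested genes above 0 and 4 below, with log2 differences from −0.34 to 1.20 and a median of 0.15 (0.32 after rescaling). Fkbp5, a chaperone of the glucocorticoid receptor, was higher in all 4 K320E-skm libraries, like 0.333% of all tested genes. It averaged 10.2 ± 2.11 and 5.89 ± 0.578 FPKM, a log2 difference of 0.69 with an adjusted p of 0.271 by limma. The largest difference of the list was that of the stress gene Ddit4, at 16.9 ± 6.86 and 7.24 ± 4.37 FPKM, with overlap. The most abundant genes of the list also had overlapping ranges, with Tsc22d3 at 103 ± 12.7 and 96.8 ± 17.8 FPKM, Sgk1 at 64.3 ± 8.03 and 76.3 ± 8.77 FPKM and Klf9 at 31.8 ± 2.46 and 32.1 ± 3.23 FPKM. The part of FoxO factors, Klf15 and glucocorticoids in the Pdk4 values was not tested. Ddit4, Fkbp5, Hadhb, Pdk1, Pdk2 and Pdk3 were named after their values were seen.

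**Figure D3:**
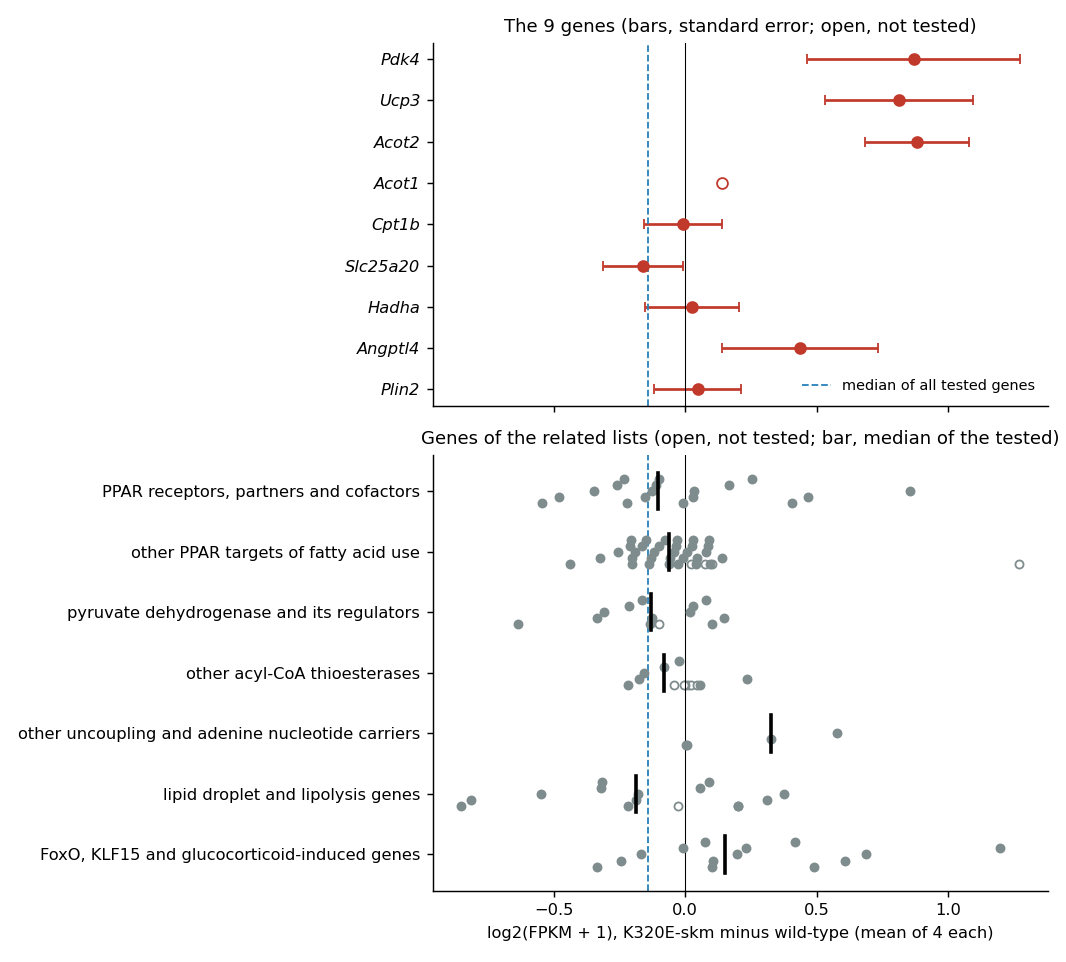
Difference between the genotypes on the log2(FPKM + 1) scale, K320E-skm minus wild-type: above, the 9 genes with standard errors (open symbol, Acot1, not tested), and below, each gene of the related lists (open symbols, below the filter and not tested) with the median of the tested ones as a black bar. The dashed line is the median of all tested genes at −0.14. Pdk4, Ucp3 and Acot2 stand at 0.81 to 0.88, the tested other PPAR targets lie between −0.44 and 0.14, and the open symbol at 1.27 is Fgf21.

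The rule that chose the members did not use the sex labels, which were compared by limma with genotype as a term, male minus female. Earlier results of these data had already shown Pdk4 and Ucp3 lower under the male label. For these genes the contrast is therefore no fresh test. Pdk4 and Ucp3 had lower means under the male label, and neither passed the threshold. Pdk4 averaged 53.0 ± 26.1 FPKM in the 4 libraries labelled male and 113 ± 41.2 FPKM in the 4 labelled female, a log2 difference of −1.11 (SE 0.22, 95% interval −1.60 to −0.63). Its unadjusted limma p of 0.000519 was the second smallest of the 10521 genes, and the adjusted p was 1.00, so the difference did not pass. Ucp3 averaged 33.0 ± 11.1 and 56.9 ± 21.8 FPKM, a log2 difference of −0.75 (SE 0.16) with an unadjusted limma p of 0.0012 and an adjusted p of 1.00. By sex label, 0.0% of genes were called, and 2.7% (284 genes) had an unadjusted p under 0.05. These 2 members were among them.

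The other 6 tested members were closer to level by label. The log2 differences, male minus female, were −0.20 for Acot2, −0.10 for Slc25a20, −0.23 for Hadha, −0.49 for Angptl4, −0.26 for Plin2 and 0.04 for Cpt1b, and none had an unadjusted p under 0.05. So 7 of 8 lay below 0, against 4345 of 10521 tested genes. The ranges of the labels overlapped in all 8 genes; of all tested genes, 0.428% were higher and 0.285% lower under the male label without overlap. The 95% interval of Acot2 was −0.64 to 0.25.

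Since K320E-skm 4 goes against its male label, the contrast was also fitted without it. Pdk4 then differed by −1.29 on the log2 scale (SE 0.20, unadjusted p = 0.000117, adjusted p = 0.142 by limma) and Ucp3 by −0.81 (SE 0.18, unadjusted p = 0.0016, adjusted p = 0.483 by limma). Of all genes, 0.038% were called in that fit, none of them a member. The 3 libraries with Y-linked transcripts, K320E-skm 1 and wild-type 1 and 3, had the 3 lowest Pdk4 values, 30.1 to 49.4 FPKM against 68.1 to 162 FPKM in the other 5. They also had the 3 lowest Ucp3 values, 20.8 to 35.0 FPKM against 36.9 to 82.0 FPKM.

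The K320E-skm mean of both genes was above the wild-type mean under each label. Pdk4 was 1.93 times as high in K320E-skm as in wild-type libraries labelled male (means 69.8 and 36.2 FPKM) and 1.81 times under the female label (145 and 80.2 FPKM). Ucp3 was 1.64 times as high under the male label (41.0 and 25.0 FPKM) and 1.94 times under the female label (75.1 and 38.8 FPKM). For Acot2 these ratios were 1.83 and 2.33. With 2 libraries in each cell, these are values without a test of their own. The K320E-skm means under the male label include K320E-skm 4, whose transcripts go against that label. Pdk4 was at 49.4 FPKM in K320E-skm 1 and 90.2 FPKM in K320E-skm 4, and Ucp3 at 35.0 and 47.1 FPKM. Y-linked transcripts were found in K320E-skm 1 and in wild-type 1 and 3, so genotype and sex by transcripts are not balanced. The part of sex in these ratios was not tested. The interaction of genotype and sex label had an adjusted limma p of 0.999 for each of the 8 tested members, where 0.019% of all genes were called. For Pdk4 the interaction was 0.03 with a 95% interval of −1.01 to 1.08. With the sex label as a term, the standard error of the genotype difference of Pdk4 went from 0.41 to 0.22 and that of Ucp3 from 0.28 to 0.16, while that of Acot2 was 0.20 in both.

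Pdk4 and Ucp3 also varied together from library to library. On the log2 scale, with the mean of each genotype taken off, Pearson's r between them over the 8 libraries was 0.87 and Spearman's rho 0.90 (exact two-sided permutation p = 0.016 and 0.014 within genotypes, 8 relations computed, adjusted p = 0.125 and 0.111), so the relation did not pass after adjustment. Without K320E-skm 1 and wild-type 1, r was 0.96. These libraries lay farthest from the median of Pdk4 on the log2 scale with genotype means taken off. For Acot2 r was 0.15 and rho 0.07 (exact permutation p = 0.781 and 0.896), and r was 0.66 without the same 2 libraries, so the low value rests on them. For the other members r was 0.06 for Acot1, 0.05 for Cpt1b, 0.35 for Slc25a20, 0.59 for Hadha, 0.28 for Angptl4 and 0.40 for Plin2. Without the same 2 libraries r was 0.91 for Angptl4, 0.75 for Plin2, 0.55 for Acot1, 0.24 for Hadha, and 0.07 for both Cpt1b and Slc25a20. All adjusted permutation p over the 8 libraries, apart from those of Ucp3, were 0.681 or more. Each sex label holds 4 libraries, too few for a correlation within a label. Since Pdk4 and Ucp3 both have lower means under the male label, this covariation and the label contrast rest on the same values.

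**Figure D4:**
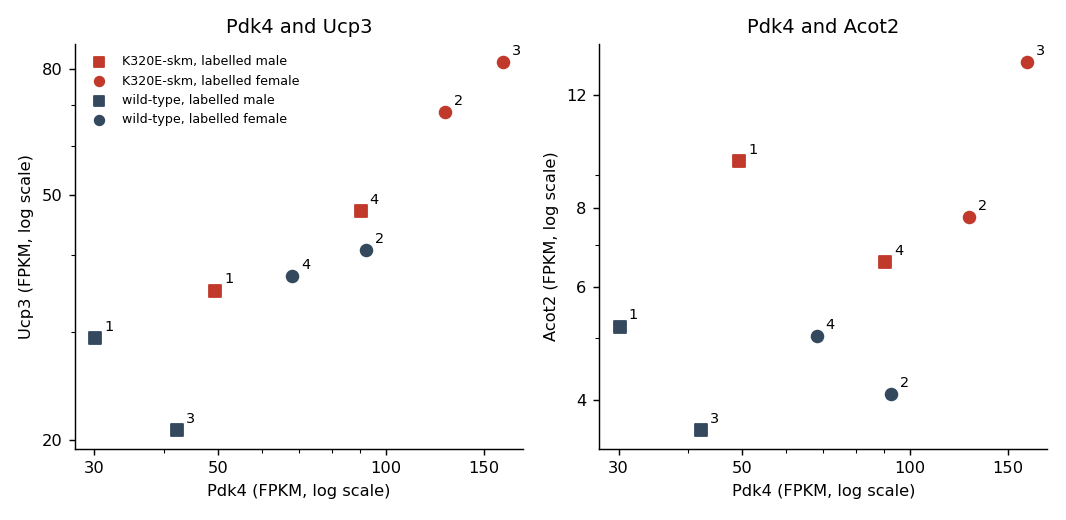
FPKM of Ucp3 (left) and Acot2 (right) against FPKM of Pdk4, all axes on a log scale; each point is 1 of the 8 libraries with its number, coloured by genotype and shaped by sex label. Libraries high in Pdk4 tend to be high in Ucp3 (r = 0.87 after centring each genotype), and Acot2 separates the genotypes, with r = 0.15 over the 8 libraries and 0.66 without K320E-skm 1 and wild-type 1.

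Among all tested genes, those whose log2 values went most closely with Pdk4 over the 8 libraries were Isy1 (r = 0.93), N4bp2l1 (0.91), Ucp3 (0.91), Cars (0.91) and Cdkn1a (0.90), with predicted genes left out. This order includes the genotype difference for which Pdk4 and Ucp3 were both chosen. With genotype means taken off, the r of Ucp3 with Pdk4 was 0.87 and its rank was 34, with Pdk4 itself counted as 1. The points share the libraries and their scaling, and these values are a description.

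Slow fibres use more fat than fast fibres, so the fibre markers are given beside the members. Slow fibre markers summed to 48.1, 49.4, 161 and 98.5 FPKM in K320E-skm libraries 1 to 4 and to 90.0, 88.9, 39.2 and 87.0 FPKM in wild-type libraries 1 to 4. K320E-skm 3 had the highest sum and also the highest Pdk4, Ucp3, Acot2, Cpt1b and Hadha. Other libraries went both ways. Wild-type 3 had the lowest sum and the lowest Ucp3, at 20.8 FPKM. K320E-skm 2, with a sum of 49.4 FPKM, had Pdk4 at 128 FPKM and Ucp3 at 68.1 FPKM. Wild-type 1, with a sum of 90.0 FPKM, had the lowest Pdk4, at 30.1 FPKM. Fast fibre markers other than Myh4 (its entry is 0 for wild-type 4 and for K320E-skm 2, 3 and 4) summed to 25449, 19513, 19493 and 21953 FPKM in K320E-skm libraries 1 to 4 and to 28288, 24596, 27152 and 25642 FPKM in wild-type libraries 1 to 4. The lowest fast fibre sums were those of K320E-skm 3, 2 and 4, which also had the highest Ucp3. Endothelial markers summed to 36.8 to 47.6 FPKM in K320E-skm and 41.5 to 55.9 FPKM in wild-type libraries, and macrophage markers to 10.6 to 25.3 and 9.53 to 24.3 FPKM. The part of fibre type in the members' values was not tested.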

How the data were processed

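Total RNA of 8 tibialis anterior samples was made into libraries with a stranded kit, per the labels' protocols. The authors deposited 1 table with an FPKM value for every gene and library. The submitters' processing notes name CASAVA, the aligner TopHat2 2.0.10, the quantifier Cufflinks 2.1.1 and build mm10. The sources used here give neither the annotation nor the strand setting nor the handling of multi-mapped fragments. FPKM are shares of a library, so a large change in abundant genes shifts all others. A value of exactly 0 may mean that the estimate failed. Without counts, counting error has no interval. Symbols came from GENCODE M21 (GRCm38), which matched 47864 of 48328 IDs. All 8 columns were matched by name, and no libraries held identical values.

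Log2(FPKM + 1) was fitted by limma 3.58.1 in R 4.3.3 (genotype alone, trended empirical Bayes, two-sided) for the 10521 genes that reached 1 FPKM in 4 or more libraries, with Benjamini-Hochberg adjustment over all of them and a threshold of 0.05. The pseudocount of 1 makes differences of low genes smaller. Sex was left out because the transcripts of 1 library contradict its label; label and interaction had fits of their own. Covariation with Pdk4 was tested by the 576 exact permutations within genotypes. On simulated data of 10521 genes for K320E-skm against wild-type, 81 of 100 genes changed by 1 and 98 of 100 changed by 2 on the log2 scale were recovered with 11 false calls. For male against female label, these were 66 of 100, 99 of 100 and 4. The simulated noise was normal and independent between genes, without shifts shared by a library. The shares recovered need not hold for the real data, where 2 genes were called between genotypes.

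The members and lists were chosen with earlier results of these data known. Named genes were the 9 members, of each list up to 4 called genes or else the 3 with the highest mean FPKM, and the 5 genes most like Pdk4, with predicted genes left out. Alternatives were quantile normalization, median-ratio rescaling, a smaller pseudocount (0.1), a stricter filter (5 FPKM) or none, a sex term, a replicate block, the sum of Acot1 and Acot2, and leaving out each library. Acta1, a marker of muscle, was not analysed here. Tables were read with pandas 2.3.3 and figures drawn with matplotlib 3.10.9 in Python 3.11.15.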

Additional observations from a re-analysis of the deposited data

Results flagged for a closer look

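Of the 38 named genes, each checked in both genotypes (76 groups), 7 had a library whose gap to the nearest other was large for a group of 4; chance gives about 1 in 20. The 38 include Ppara, Ppard, Pparg and Ppargc1a, which were named after their values were seen. Pparg and Ppargc1a are among the 7, so the count is not a fair comparison with chance. None of the 9 members was among them. In wild-type 2, Mpc2 was lowest at 63.0 FPKM, Slc25a4 lowest at 720 FPKM, Plin4 highest at 40.3 FPKM and Pparg highest at 6.45 FPKM. In wild-type 1, Acot13 was highest at 59.5 FPKM. In K320E-skm 3, Sgk1 was lowest at 52.4 FPKM, and in K320E-skm 2, the PPAR coactivator Ppargc1a was highest at 40.7 FPKM. Wild-type 2, which holds 4 of the 7, also had the highest sum of adipocyte markers other than Fabp4, at 125 FPKM, and its Pdk4, at 92.4 FPKM, was the highest of the wild-type libraries. Other libraries went both ways. K320E-skm 3, highest in Pdk4 at 162 FPKM, had a marker sum of 28.6 FPKM, and wild-type 1, lowest at 30.1 FPKM, had 73.7 FPKM. Wild-type 3 was low in both, with Pdk4 at 42.2 FPKM and a sum of 10.9 FPKM. The part of these markers in the Pdk4 value was not tested.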

How the results depend on the processing

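Pdk4, Ucp3 and Acot2 kept a positive genotype difference under every alternative run, on the log2 scale 0.60 to 1.20 for Pdk4, 0.63 to 1.03 for Ucp3 and 0.70 to 1.04 for Acot2. These genes were chosen for their rise in the same libraries, so the kept sign is no independent support. The ranges show only how far the size depends on the processing. Acot1 was also positive throughout, from 0.08 (without K320E-skm 3) to 0.56 (pseudocount of 0.1). The sum of Acot1 and Acot2, which is mostly Acot2, gave 0.88. Angptl4 ranged from 0.10 (without wild-type 3) to 0.71 (pseudocount of 0.1). Cpt1b (−0.12 to 0.17), Hadha (−0.11 to 0.20), Plin2 (−0.07 to 0.22) and Slc25a20 (−0.25 to 0.02) took both signs. By sex label, Pdk4 stayed between −1.29 and −0.95 and Ucp3 between −0.87 and −0.64. Cpt1b, at 0.04, was −0.039 after quantile normalization and −0.044 to 0.18 when 1 library was left out; Slc25a20, at −0.10, was −0.21 to 0.0065 when 1 library was left out, with the value above 0 reached without K320E-skm 1.

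The 2 genes called between genotypes became 1 without a filter and 1 with a filter of 5 FPKM, and 1 to 4 when a library was left out (1 without K320E-skm 2 or 3, 4 without K320E-skm 4). By sex label the count was 0, and 0 to 4 when a library was left out (4 without K320E-skm 4, 1 without K320E-skm 3 or wild-type 4). The interaction gave 2 calls, 8 without a filter and 2 to 5 when a library was left out (4 without K320E-skm 1 or 4, 5 without wild-type 4). Genes higher without overlap numbered 35, and 306 after median-ratio rescaling, 301 after quantile normalization, 15 with a filter of 5 FPKM, which tests fewer genes, and 43 to 179 when a library was left out, where separation is easier with fewer samples. Genes lower numbered 1009, and 314, 324, 527 and 1039 to 1754 in the same order. With the replicate number as a block, 2 genes were called. Whether the numbers pair the samples is not known. Deviations of same-numbered libraries correlated at 0.156, 0.023, 0.044 and 0.04, and 3 of 4 numbers correlated best with their own. The cause of these shifts was not tested further. The absence of counts leaves the depth behind low values such as Acot1 unknown.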
